A study of Mus musculus with 3 samples.

Results

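Ifit1, Ifit2, Ifit3, Ifit3b, Mx1, Mx2, Isg15, Rsad2, Cmpk2 and Ifi44 are antiviral genes of the interferon response, and their RNA was read here in nuclei of mouse macrophages. The 10 genes were taken by symbol from the deposited gene and transcript tables, out of 55536 annotated genes, and all 10 passed a minimum mean count of 10. That minimum was met by 15876 genes, which are called all genes tested below. The cells were bone marrow-derived macrophages (BMDM), primary phagocytes grown from marrow progenitors, of strain C57BL/6J, given 100 ng/ml Lipid A, the part of lipopolysaccharide that the receptor Tlr4 recognises, for 15 min. RNA of the nucleoplasmic fraction was depleted of ribosomal RNA and sequenced as 1 group of 3 biological replicates. All 3 shared the strain, agent, dose and time, and the labels collected neither sex nor age. No untreated or later sample was analysed here, so no value below measures a change caused by Lipid A. The labels record separate biosamples but the same donor entry, so the spread between the 3 libraries may be technical.

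Interferons bind a receptor whose signal reaches a DNA element called ISRE (interferon-stimulated response element) in front of such genes, where Stat2 and Irf9 act. Macrophages also keep a low tonic interferon signal, and Tlr4 can add to it by inducing Ifnb1, the gene of interferon beta. The proteins act at different steps of infection: Ifit proteins bind viral RNA, Mx proteins are GTPases that trap viral particles, Isg15 is a small modifier joined to other proteins, and Rsad2 makes a nucleotide that stops viral polymerases.

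The libraries held 18516063, 17345644 and 20947006 expected counts in annotated genes in replicates 1, 2 and 3. An expected count is the number of reads a model assigns to a gene, and TPM is that number corrected for length and scaled within a library. A count of 0 would have allowed up to 3 counts, which equals 0.162, 0.173 and 0.143 CPM (counts scaled to a common library total) in replicates 1, 2 and 3. Such limits and the intervals below cover counting error only. All 8 macrophage markers were detected, with a summed level between 2755 and 3760 TPM. Each of 6 lists of markers of other cells (plasmacytoid and conventional dendritic cells, T cells, B cells, neutrophils and fibroblasts) summed to at most 3.43 TPM in any library. Of these lists Cd3e, Ly6g, Pdgfra and Lum were at 0 in all 3 libraries, but other listed markers were detected. A mean count of 10 was reached by 2 plasmacytoid and 3 conventional dendritic markers, 1 neutrophil and 1 fibroblast marker, and 0 T cell or B cell markers. Ccr9 had 172, 135 and 153.1 counts, Zbtb46 105, 147 and 85, and Ngp 9, 42 and 24 in replicates 1, 2 and 3.

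Upstream sequences were examined for 8 of the 10 genes, which have 9 entries in a RefSeq promoter table of build GRCm38.p6. The letters GAAANNGAA, the core of the ISRE, were searched on both strands in the 250 bases before each start. They were present in 5 of the 9 entries (55.6%), those of Ifit1, Ifit3, Ifit3b, Isg15 and Rsad2, and in 2342 of 32851 promoters of the table (7.13%). Entries with 2 or more cores, overlapping ones counted separately, made up 44.4% of the members' and 0.469% of all promoters. The near copies Ifit3 and Ifit3b are separate entries in these shares. The core was also frequent in related antiviral lists, in 71.4% of 7 entries of further Ifit, Ifi44 and RNA sensor genes, 66.7% of 6 Oas entries and 87.5% of 8 Gbp and Irg entries. The letters were not in these windows of Ifit2, which has 2 entries, Cmpk2 or Ifi44. A second motif, TTCNNNGAA of the gamma-activated site (GAS), was present in the first Ifit2 entry alone among the 9, and in 7.02% of all promoters.

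The 70 bases that hold the most cores are shown on the gene strand, because they carry the feature that the members with a match share and show how it is arranged. Capitals mark the ISRE core, read as its reverse complement in the Rsad2 and Ifit genes. The windows are chr4:156200852-156200921 (minus strand) for Isg15, chr12:26456533-26456602 (minus strand) for Rsad2, and chr19:34640760-34640829, chr19:34583372-34583441 and chr19:34607768-34607837 (plus strand) for Ifit1, Ifit3 and Ifit3b.
Isg15: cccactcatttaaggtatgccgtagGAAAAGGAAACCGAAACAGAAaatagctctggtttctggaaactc
Rsad2: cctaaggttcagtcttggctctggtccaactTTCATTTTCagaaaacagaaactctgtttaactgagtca
Ifit1: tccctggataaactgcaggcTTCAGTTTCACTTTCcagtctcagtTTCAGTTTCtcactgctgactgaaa
Ifit3: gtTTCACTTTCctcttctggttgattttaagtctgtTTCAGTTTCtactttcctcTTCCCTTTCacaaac
Ifit3b: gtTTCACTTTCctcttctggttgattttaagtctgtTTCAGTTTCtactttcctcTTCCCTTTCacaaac
The 3 cores of Isg15 lay between positions -78 and -58 from the start, each overlapping the next. Ifit1 had 3 cores between -109 and -76, of which the first pair overlapped. The windows of Ifit3 and Ifit3b were identical and held 3 separate cores, which lay between -155 and -94 in Ifit3 and between -187 and -126 in Ifit3b. These positions depend on the RefSeq starts, 34583529 for Ifit3 and 34607957 for Ifit3b. The annotated genes begin at 34583531 and 34607970. Rsad2 had a single core at -119 to -111. A match of letters is a description and not a binding site measured in these cells.

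**Figure D1:**
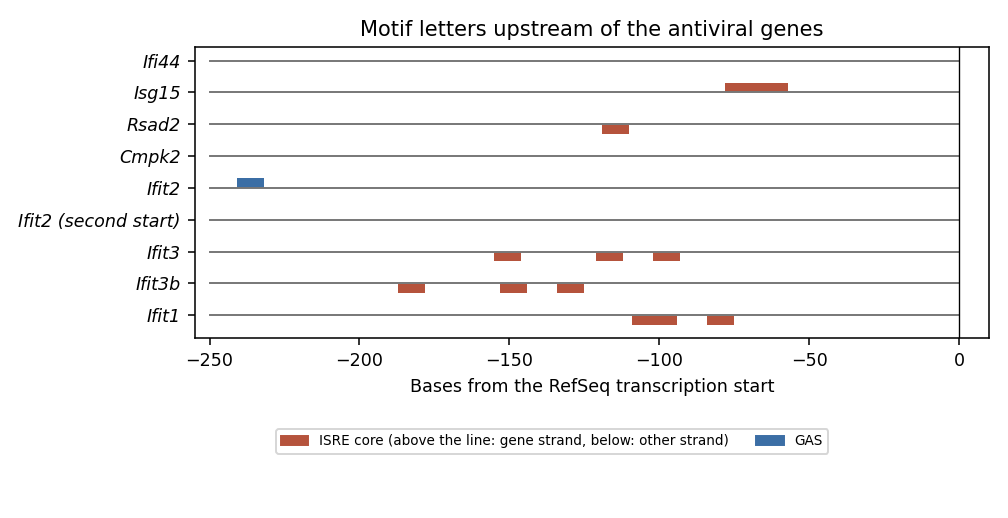
Positions of the motif letters in the 250 bases before each RefSeq start (x axis, bases from the start), with one line per promoter entry; red boxes are ISRE cores, the blue box is the GAS letters, and boxes above or below a line are on the gene strand or the other strand. Cores are seen in Isg15, Rsad2, Ifit3, Ifit3b and Ifit1 and not in Ifi44, Cmpk2 or Ifit2.

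Nuclear RNA of all 10 genes was measured in each library, with mean levels that ran from Rsad2 at the top to Ifit3b at the bottom. In replicate 1 Mx1 (30.3 TPM) was above Rsad2 (28.2 TPM). The median member was at 9.86, 15.8 and 13.6 TPM in replicates 1, 2 and 3, with a mean of 13.1 ± 3.01 TPM (SD, n = 3), against 4.81 ± 0.898 TPM for all genes tested and 6.7 ± 1.07 TPM for the protein-coding ones. A mean of at least 10 TPM was reached by 6 members (Rsad2, Mx1, Ifit2, Ifit3, Mx2 and Cmpk2) and by 31.5% of all genes tested. Together the members held 0.0426%, 0.0963% and 0.094% of all counts in replicates 1, 2 and 3, so replicate 1 had the lowest share. Rsad2, Mx1, Ifit2 and Ifit3 made up 72.0%, 78.6% and 77.7% of the members' summed TPM in these libraries.

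**Figure D2:**
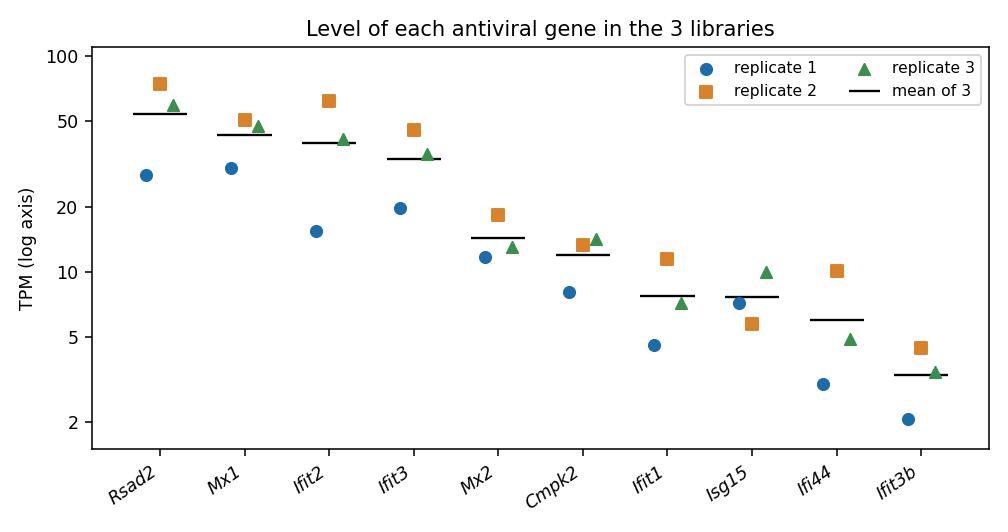
TPM on a log axis for each gene, with 1 point per library and a bar at the mean of 3, ordered by mean. Replicate 1 is the lowest point for every gene but Isg15, and the means run from 54.0 TPM for Rsad2 to 3.3 TPM for Ifit3b.

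Rsad2 (viperin; ENSMUSG00000020641.16, chromosome 12, 26442746 to 26456452, minus strand, GRCm38) converts CTP into a chain-terminating nucleotide. It was at 28.2, 74.0 and 59.7 TPM in replicates 1, 2 and 3, with 2562, 5571 and 7011 counts. Replicate 1 was below both others, and the mean of 54.0 ± 23.4 TPM (SD, n = 3) was the highest of the 10. Cmpk2 (ENSMUSG00000020638.8, chromosome 12, 26469204 to 26479837, plus strand), a mitochondrial kinase that supplies nucleotides, lies 12751 bases beyond the start of Rsad2 on the opposite strand. Its level was 8.06, 13.3 and 14.2 TPM in replicates 1, 2 and 3 (11.9 ± 3.32, SD, n = 3), from 550, 833 and 1334 counts. Rsad2 exceeded its neighbour in every library, by 3.5, 5.58 and 4.19 times in TPM.

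The Ifit genes of tetratricopeptide-repeat proteins lie side by side on the plus strand of chromosome 19, with the 4 members within 99316 bases (34550694 to 34650009). Ifit2 (ENSMUSG00000045932.12, 34550694 to 34576419) was the most abundant of them on average, at 15.4, 62.2 and 41.4 TPM in replicates 1, 2 and 3 (39.7 ± 23.4, SD, n = 3). Its 1391 counts in replicate 1 stood far below the 4660 and 4835 of replicates 2 and 3. Ifit3 (ENSMUSG00000074896.3, 34583531 to 34588731) was at 19.8, 45.4 and 35.3 TPM in replicates 1, 2 and 3 (33.5 ± 12.9, SD, n = 3). Ifit1 (ENSMUSG00000034459.8, 34640871 to 34650009), which binds viral RNA caps that lack a methyl group, was at 4.56, 11.5 and 7.19 TPM in replicates 1, 2 and 3 (7.75 ± 3.51, SD, n = 3). In all 3 genes replicate 1 was the lowest and replicate 2 the highest library by TPM. Of the further Ifit genes, Ifit1bl1 had a mean of 0.863 ± 0.199 TPM (SD, n = 3), and Ifit1bl2 had 4.02, 4 and 2.01 counts in replicates 1, 2 and 3.

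Ifit3b (ENSMUSG00000062488.9, 34607970 to 34613401) is a near copy of Ifit3 that begins 19238 bases after Ifit3 ends. Both coding sequences are 1209 bases long and, aligned without gaps, differed at 11 positions (99.1% identity), with a longest identical stretch of 329 bases. The other Ifit pairs among the members were 50.6% to 56.0% identical. The stretch from coding position 229 to 288 is shown because it holds the most differences found in any 60 coding bases. A read over such differences can tell the genes apart. Capitals mark the 4 differing bases.
Ifit3: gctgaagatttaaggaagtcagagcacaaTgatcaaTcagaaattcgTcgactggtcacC
Ifit3b: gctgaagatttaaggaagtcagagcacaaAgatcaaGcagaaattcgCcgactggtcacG
The transcripts of Ifit3 and Ifit3b, 1745 and 2000 bases long, also differ outside the coding sequence. Over the whole transcripts, 61.8% of the 31-base windows of Ifit3 also occurred in Ifit3b, and 54.1% of the windows of Ifit3b in Ifit3. Reads from such windows were divided by the model, so both levels carry this uncertainty. The deposited posterior SD of the count was 3.65, 4.74 and 6.18 counts in replicates 1, 2 and 3, and was the same for both genes. Ifit3 was assigned 763.3, 1440 and 1774 counts in these libraries, against 93.7, 163.5 and 199.6 for Ifit3b. In TPM, Ifit3b was at 2.08, 4.41 and 3.42 in replicates 1, 2 and 3, the lowest mean of the 10 genes (3.3 ± 1.17, SD, n = 3). Ifit3 exceeded it 9.54, 10.3 and 10.3 times in replicates 1, 2 and 3. This was the steadiest of the 3 ratios between genomic neighbours, with a log2 difference of 3.29 ± 0.08 (SD, n = 3). Its size depended on how reads were divided: by the second deposited quantification method the mean log2 difference was 2.73.

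Mx1 (ENSMUSG00000000386.15, chromosome 16, 97447035 to 97462907, minus strand) and Mx2 (ENSMUSG00000023341.15, chromosome 16, 97535308 to 97560900, plus strand) encode dynamin-like GTPases and lie 72400 bases apart. The Mx1 allele of C57BL/6 mice lacks coding exons and makes no functional protein, and the annotation lists Mx2 as a polymorphic pseudogene. Both were nevertheless read in the nuclear fraction. Mx1 was at 30.3, 50.8 and 47.5 TPM in replicates 1, 2 and 3 (42.9 ± 11.0, SD, n = 3), from 1462, 2225 and 2659 counts. Mx2 was at 11.7, 18.3 and 13.0 TPM in these libraries (14.3 ± 3.53, SD, n = 3), from 476.8, 611.7 and 677.6 counts. Mx1 exceeded Mx2 by 2.6, 2.77 and 3.64 times in replicates 1, 2 and 3. Few exact 31-base windows were shared: 7.22% of those of Mx1 occurred in Mx2, and 7.96% of those of Mx2 in Mx1. Such windows describe which reads could be confused and not how alike the genes are, as Mx1 and Mx2 were not aligned.

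Isg15 (ENSMUSG00000035692.6, chromosome 4, 156199424 to 156200818, minus strand), the ubiquitin-like modifier, had fewer counts than any other member in replicates 2 and 3. It had 96, 64 and 182 counts, or 7.16, 5.74 and 9.92 TPM, in replicates 1, 2 and 3 (7.61 ± 2.13, SD, n = 3). Its order of libraries was its own: replicate 3 was the highest and replicate 2 the lowest. Of its 31-base windows 12.8% occurred in another gene, chiefly the annotated gene AC151275.1. Of the enzymes that join Isg15 to proteins, 3 were at higher levels, with the activating enzyme Uba7 at 59.6 ± 10.2 TPM, Trim25, a ubiquitin and Isg15 ligase, at 75.0 ± 23.5 TPM and the mouse ligase Herc6 at 26.7 ± 10.6 TPM (SD, n = 3). The conjugating enzyme Ube2l6, at 7.94 ± 2.75 TPM, was below Isg15 in replicates 1 and 3 and above it in replicate 2. Usp18, which removes Isg15 and restrains the interferon receptor, was at 9.59 ± 1.82 TPM (SD, n = 3).

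Ifi44 (ENSMUSG00000028037.13, chromosome 3, 151730922 to 151749960, minus strand), an interferon-induced GTPase-like protein, was at 3.0, 10.1 and 4.86 TPM in replicates 1, 2 and 3 (5.98 ± 3.66, SD, n = 3). Its 214, 554 and 450 counts were lowest in replicate 1 and highest in replicate 2. Its annotated relative Ifi44l had 0 counts in all 3 libraries. No member overlaps another annotated gene, so none shares reads with an antisense or nested partner.

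The order of the levels was examined with the within-library difference of log2(TPM + 0.1), a scale that understates differences of low genes. By mean TPM the order was Rsad2, Mx1, Ifit2, Ifit3, Mx2, Cmpk2, Ifit1, Isg15, Ifi44 and Ifit3b. Neighbours were called separated where the difference had the same sign in all 3 libraries and a mean above its SD. Of 9 neighbour pairs 3 were separated, with Ifit3 above Mx2 by 1.17 ± 0.36, Cmpk2 above Ifit1 by 0.66 ± 0.41 and Ifi44 above Ifit3b by 0.73 ± 0.39 on the log2 scale (SD, n = 3). By the second quantification method the step between Ifit3 and Mx2 was 0.36 on the log2 scale, and in replicate 1 Ifit3 and Ifit2 (7.13 and 5.91 TPM) were below Mx2 (7.76 TPM). That method also put Mx1 above Ifit2 in each library, by a mean of 1.21. By the same method the mean log2 difference of Rsad2 minus Mx1 was 0.0. In replicate 1 it put Mx1 (21.1 TPM) above Rsad2 (15.4 TPM). In the first tables Mx1 was 1.96 times Ifit2 in replicate 1 but 0.817 times Ifit2 in replicate 2, and Isg15 was 2.39 times Ifi44 in replicate 1 but 0.57 times Ifi44 in replicate 2. For the genomic neighbours the mean log2 differences were 3.29 ± 0.08 for Ifit3 minus Ifit3b, 2.11 ± 0.34 for Rsad2 minus Cmpk2 and 1.57 ± 0.26 for Mx1 minus Mx2 (SD, n = 3), positive in 3 of 3 libraries each. Flipping signs within libraries (an exact permutation test, two-sided) gave p = 0.25 for these 3 differences and for the 3 separated neighbours. That is the smallest value that 3 libraries allow, so none could pass a threshold of 0.05. The neighbours were ordered by mean TPM of these same libraries, and the same sign in all 3 alone fixes this p. For the separated neighbours it therefore adds nothing to the rule that picked them. Such p-values measure only the spread between these samples.

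The members differed between the libraries more than most genes did, and replicate 1 was low in nearly all of them. This was compared on log2 CPM with TMM scaling, as the value in a library minus the mean of the other libraries. Replicate 1 was below both others for 9 of 10 members, all but Isg15, whereas 34.7% of all genes tested were below both others in that library. It was at least 2-fold below both others for 5 members (Ifit1, Ifit2, Ifit3, Rsad2 and Ifi44), against 3.22% of all genes tested. The count was 3 with library totals in place of TMM, and 3 with the second method's counts. For these alternatives the share of all genes is not given. The median member was at 0.472 times the level of the other libraries in replicate 1 (log2 -1.08), while the median of all genes tested was at 1.01 times. Between single libraries of 1 group there is no replicate check, so these values carry no test.

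The size of the deficit varied with the gene. Ifit2 had the largest, with 70.6 CPM in replicate 1 against 264.4 and 251.0 CPM in replicates 2 and 3, a log2 difference of -1.87. Rsad2 followed with 130.0 CPM against 316.0 and 363.9 CPM (log2 -1.38), and Ifi44 with 11.0 CPM against 31.5 and 23.5 CPM (log2 -1.31). In each of these genes both other libraries lay well above replicate 1 and close to one another by comparison. The difference was -1.16 for Ifit3, -1.13 for Ifit1, and -1.03 for both Ifit3b and Cmpk2. Of the 9 genes the Mx genes deviated least, with -0.83 for Mx1 and -0.53 for Mx2. Isg15 stood apart: it had 4.97 CPM in replicate 1, 3.74 CPM in replicate 2 and 9.55 CPM in replicate 3, so its low library was replicate 2 (log2 -0.88) and its high library replicate 3 (log2 1.15).

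**Figure D3:**
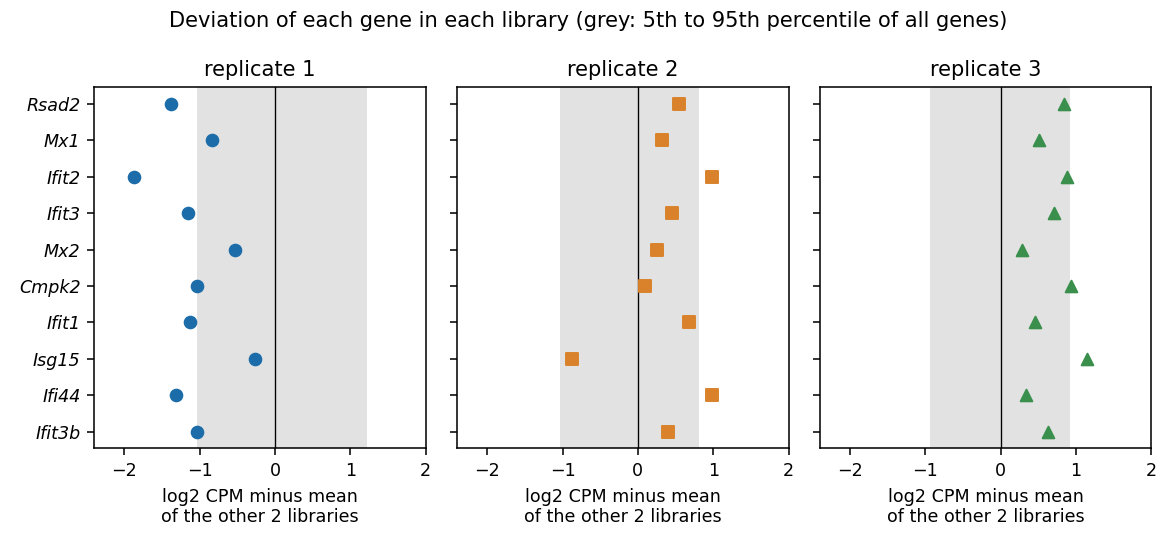
Log2 CPM of each gene in a library minus the mean of the other 2 libraries (x axis), with 1 panel per library and a grey band from the 5th to the 95th percentile of all genes tested. In replicate 1 every point lies left of 0, from -1.87 for Ifit2 to -0.26 for Isg15, while in replicates 2 and 3 all but Isg15 in replicate 2 lie right of it.

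Replicates 2 and 3 were much closer to each other. The SD of log2 CPM over the 3 libraries had a median of 0.67 over the members, against 0.32 over all genes tested, and without replicate 1 the members' median was 0.12. Replicate 3 was above both others for 7 members (Ifit3, Ifit3b, Mx1, Mx2, Isg15, Rsad2 and Cmpk2), against 31.9% of all genes tested. By TPM the count was 2, Isg15 and Cmpk2, and by TPM over protein-coding genes it was 9. The share of all genes on these TPM scales is not given, so these counts are not read as a result about the members. The median of all genes tested also differed between libraries, at 5.25, 5.4 and 3.77 TPM in replicates 1, 2 and 3. Protein-coding genes held 27.5%, 35.6% and 21.3% of all TPM in replicates 1, 2 and 3. The order of replicates 2 and 3 depended on the scale, whereas replicate 1 was below both others for 9 members on each of these scales. By the second method's unscaled TPM, replicate 3 was instead the lowest library for each member.

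The libraries also differed in other measures, which are given here as values. A list of 16 proliferation genes summed to 692 CPM in replicate 1, against 204 and 228 CPM in replicates 2 and 3. In replicates 1, 2 and 3, phiX spike-in reads made up 1.24%, 0.371% and 0.064%, and mitochondrial ribosomal RNA 0.124%, 0.0575% and 3.2%. The RNA input was 1 µg for replicates 1 and 3, and 500 ng for replicate 2. Their part in the low values of the members was not tested. In bulk RNA, fewer cells expressing a gene and less RNA of it per cell cannot be told apart.

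The SD of log2 CPM over libraries had a median of 0.67 for the members and 0.27 for the genes that carry the interferon signal, a difference that was not tested. The transcription factor Stat2 was at 69.5 ± 8.51 TPM, its partner Irf9 at 17.8 ± 2.14 TPM and Irf7, a factor that amplifies interferon production, at 35.1 ± 6.6 TPM (SD, n = 3). Interferon itself was near the limit of detection: Ifnb1 had 3, 4 and 7 counts in replicates 1, 2 and 3, and Ifna4 had 0, 0 and 2. Of 14 listed genes of this signal 12 were tested, and 8 were below both others in replicate 1 with none at least 2-fold lower, at a list median of -0.32 on the log2 scale. Irf1, an early transcription factor of the same list, had another pattern, with 96.0, 71.8 and 230.6 TPM in replicates 1, 2 and 3. Like Isg15, it was highest in replicate 3 and lowest in replicate 2. This order was not particular to Irf1, as on log2 CPM Irf3 and Socs1 of the same list had it too.

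Other antiviral families are set beside the members by the same measure. Among the Isg15 conjugation and removal genes 5 of 5 were below both others in replicate 1 (median log2 -0.67), and none was 2-fold lower. Of 6 further Ifit, Ifi44 and RNA sensor genes 4 were tested, and all 4 were below both others (median log2 -0.64), among them the sensor Ddx58 (RIG-I) at 27.6, 45.9 and 35.3 TPM in replicates 1, 2 and 3. In the Oas family, whose enzymes make an activator of RNase L, 7 of 8 genes were below both others, with a median log2 of -0.35 and none 2-fold lower, and Oas1b was the exception. All 9 Gbp and Irg genes, interferon-induced GTPases that act on intracellular microbes, were below both others, 6 of them at least 2-fold (Gbp2 to Gbp7), with a median log2 of -1.79. The members' median of -1.08 thus lay between that of the Gbp and Irg genes and those of the other lists. Whether the lists differ from one another was not tested.

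The genes outside these lists whose profile was most like the members' median were Plxnc1, Adam33, Abca1, Ulk1 and Optn, among 8965 protein-coding genes above a mean count of 100. Likeness was the Euclidean distance of centred log2 CPM over the 3 libraries, and the members' median profile was -0.72, 0.28 and 0.45 in replicates 1, 2 and 3. The 5 distances ran from 0.0176 to 0.0416. Over only 3 libraries such likeness is common: 247 of these genes (2.76%) were within 0.26, the median distance of the members themselves. Ifit3b and Ifit3 were the closest members, at 0.049 and 0.062, and Isg15 the most distant, at 1.08.

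Transcript types were read from the transcript tables, where a model divides reads among overlapping transcripts. Ifit1, Ifit2, Ifit3, Ifit3b and Isg15 have protein-coding transcripts only. For the other 5 genes the shares below are percentages of the gene's counts, and 95% Clopper-Pearson intervals are given where a share in single libraries is described. A retained-intron transcript, one that keeps an intron, is annotated for 4 of the members. In Cmpk2 it took 30.0% (26.2 to 34.0), 47.6% (44.2 to 51.1) and 43.9% (41.2 to 46.6) in replicates 1, 2 and 3. The mean was 40.5% ± 9.3 (SD, n = 3). These intervals leave out the uncertainty of dividing reads among transcripts. For Cmpk2-204, the main retained-intron transcript, the posterior SD was 19.8, 28.7 and 28.8 counts in replicates 1, 2 and 3. In Ifi44 the share was 35.6% (29.1 to 42.3), 31.8% (27.9 to 35.8) and 34.2% (29.8 to 38.8) in replicates 1, 2 and 3. In the Mx genes little was assigned to such transcripts, 1.9% ± 0.995 in Mx1 and 1.59% ± 1.76 in Mx2 (SD, n = 3). These low shares depended on the setting: Mx1 was at 4.49% by the second method and at 22.5%, 12.2% and 28.2% of TPM in replicates 1, 2 and 3, and Mx2 at 7.58% of TPM and 0.649% without replicate 3.

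Pooled over these 4 members, 10.1%, 14.1% and 16.4% of counts in replicates 1, 2 and 3 were in retained-intron transcripts (13.5% ± 3.19, SD, n = 3). Over all 7231 genes tested that have such a transcript the pooled share was 22.8% ± 1.38 (SD, n = 3), and the median gene was at 19.3%. The members lay on both sides of that median: 75.3% of these genes had a lower share than Cmpk2 and 68.9% a lower share than Ifi44, but only 10.6% a lower share than Mx1 and 9.38% a lower share than Mx2. By TPM in place of counts, where short transcripts weigh more, the pooled share was 22.1% for the members and 34.2% for all these genes.

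Mx1 was the gene whose transcripts were hardest to assign. Of its 10 annotated transcripts, those marked for nonsense-mediated decay, the pathway that removes RNA with an early stop codon, took 74.9%, 72.9% and 61.5% of its counts in replicates 1, 2 and 3 (69.7% ± 7.24, SD, n = 3). Protein-coding transcripts took 28.3% ± 6.43 (SD, n = 3). The second method also gave the largest part to decay transcripts, 55.0%, but not to the same ones. Mx1-205, with 11 exons, held 57.3% by the first method and 2.18% by the second, while Mx1-203, with 14 exons, held 7.21% by the first and 46.1% by the second. Likewise the Mx1 transcript with 15 exons held 0.5% by the first and 33.8% by the second. No single leading transcript of Mx1 can be named from these tables.

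In Mx2 the polymorphic pseudogene transcripts took 90.8% ± 1.55 (SD, n = 3), led by Mx2-202 at 88.1%, and the second method gave the same leader at 82.7%. The single protein-coding transcript of Mx2 had 0, 11.5 and 0 counts in replicates 1, 2 and 3. Rsad2 was split between its protein-coding transcript, at 88.1% ± 3.4 (SD, n = 3), and a decay transcript, at 11.9% ± 3.4. The second method put 34.1% on the decay transcript, so this share too depends on the method. For Cmpk2 and Ifi44 the methods were close, with retained-intron shares of 40.1% and 36.1% by the second method.

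**Figure D4:**
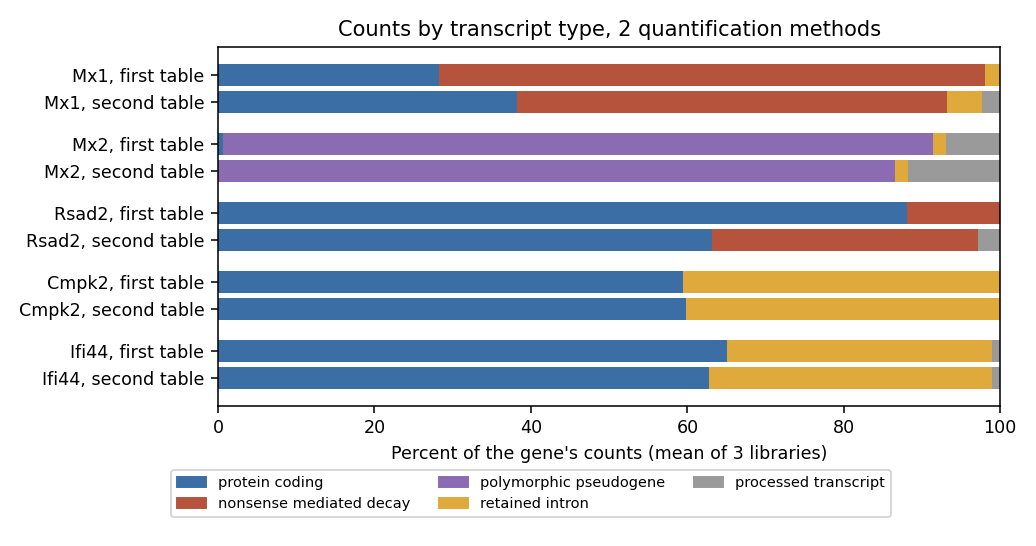
Percent of each gene's counts by transcript type (x axis, mean of 3 libraries) for the 5 genes with several types, with one bar for the first table and one for the second. The bars of Cmpk2 and Ifi44 nearly match between methods, while in Rsad2 the decay part is 11.9% in the first and 34.1% in the second.

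The gene totals of the methods were compared as the ratio of the second table's counts to the first, divided by the ratio of library totals. The mean ratio was lowest for Ifit3 (0.788 ± 0.0317), Ifit2 (0.792 ± 0.0289) and Ifit1 (0.816 ± 0.0971), and highest for Mx1 (1.25 ± 0.0918) and Mx2 (1.22 ± 0.0943, SD, n = 3 each). For all genes tested the median was 1.01 and the middle 50% ran from 0.898 to 1.33, so these 3 Ifit genes lay below that range, as did Cmpk2 at 0.892, close to its lower end. Ifit3b, the near copy, was not among them, with a ratio of 1.1 ± 0.101, and Isg15 was at 1.15 ± 0.186 (SD, n = 3). Rsad2 (0.93) and Ifi44 (1.01) lay near 1. The second method thus gave relatively more reads to Ifit3b and fewer to Ifit3 than the first, although Ifit3 stayed the higher gene in each library, with 813.2, 2073 and 1979 counts against 144.3, 340.8 and 290.4 for Ifit3b in replicates 1, 2 and 3.

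**Figure D5:**
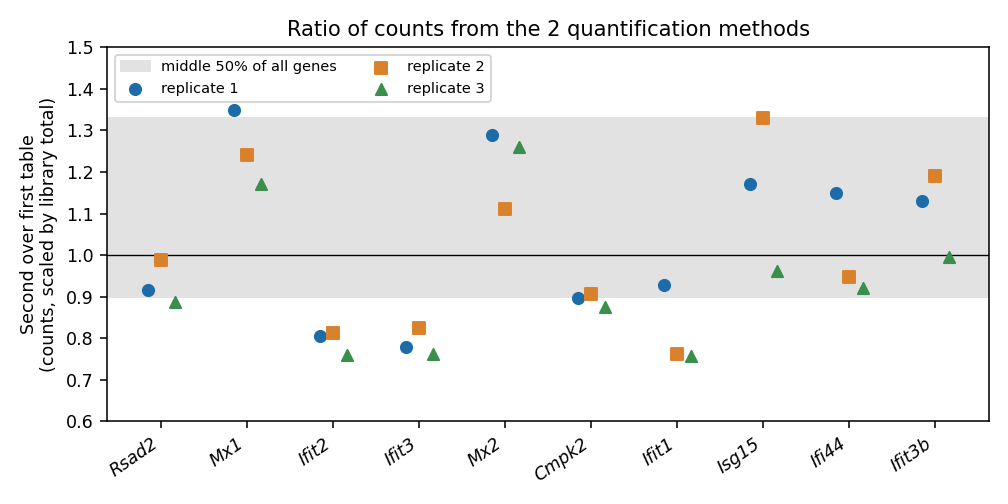
Ratio of the second to the first table's counts for each gene, scaled by the library totals (y axis, which starts above 0), with 1 point per library and a grey band for the middle 50% of all genes tested. Ifit2 and Ifit3 lie below the band in each library, between 0.759 and 0.824, and Mx1 lies between 1.17 and 1.35.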

How the data were processed

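Nuclear RNA of 3 libraries (1 group) was analysed. Per the file headers, the authors deposited a gene table and a first transcript table with expected counts and TPM, in the column format of RSEM, and a second transcript table with estimated counts and TPM, in that of kallisto. The posterior SD of a count, deposited by the authors, was used as a score of the uncertainty of read division. The labels name build mm10 and the annotation used here is GENCODE M21. For program versions and strandedness: not given in sources used here. Rows without a gene (spike-ins) were kept out of library sizes. Expected counts were rounded, genes below a mean count of 10 dropped, and log2 CPM computed with edgeR 4.0.16 (TMM, prior count 2). DESeq2 1.42.0 size factors were an alternative. A pseudocount of 0.1 was added to TPM. The calculation of deviations was checked on simulated counts with known changes. Sequences came from RefSeq (GRCm38.p6) and the annotation. Deposited columns with no sample numbered 0.

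All 10 members were named, as were the 5 genes most like them by a distance rule. From the pathway lists, which are counted in full, Ifnb1, Stat2, Irf9, Irf7 and Usp18 were named by rule, and the others were singled out after their values were seen. One listed gene is not reported here. The members and lists were chosen with earlier results of these data known. Because the single group allows no comparison of conditions, tests were limited to differences between genes within libraries. They were the exact sign-flip tests of 9 neighbour pairs and 3 genomic pairs, with no adjusted values since none could pass 0.05.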

Additional observations from a re-analysis of the deposited data

How the results depend on the processing

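The 3 differences between genomic neighbours kept their direction under every alternative computed. So did the low values in replicate 1 under every alternative on counts and on the first table's TPM. By the second table's TPM, however, replicate 3 was the lowest library for each member. Rsad2 was at 15.4, 74.4 and 12.6 TPM in replicates 1, 2 and 3 there. Protein-coding genes held 14.1%, 27.9% and 3.84% of that TPM. Scaled over these genes, Rsad2 was at 109.7, 266.4 and 328.1 TPM. The median level of the members was 8.19 TPM in the second table, where 4 members reached 10 TPM. It was 48.0 TPM when TPM was taken over protein-coding genes, where 10 members did so. That scaling raises the value of every gene. The share of all genes at 10 TPM is not given on either scale, so these numbers describe the scale and not the members. Leaving out single replicates gave 4 to 6 separated neighbours, a median spread of 0.12 to 0.78 and a median deviation of replicate 2 of -0.14 to 1.01, negative without replicate 1, where that of replicate 3 was 0.14. The rule of separation is easier to meet with fewer libraries, so the higher numbers of separated neighbours do not show a clearer order. Members at least 2-fold lower in replicate 1 numbered 3 with library totals and 3 with the second table's counts. Members above both others in replicate 3 numbered 2 by TPM, 9 by TPM over protein-coding genes, 9 with the second table's counts and 5 with library totals. The share of all genes under these alternatives is not given, so a shift of all genes is not separated from one of the members. The TPM counts of replicate 3 were chosen after seeing the data, as were the deviations without single replicates. The retained-intron share was 22.1% of TPM. Differences that changed sign when a replicate was left out were Mx1 minus Ifit2 (-0.05 to 0.58), Ifit2 minus Ifit3 (-0.07 to 0.34) and Ifit1 minus Isg15 (-0.55 to 0.27). The cause was not tested. No paired analysis was possible because there was 1 group. With 3 libraries no test could pass 0.05, and Isg15, Ifit3b and Ifi44 had the fewest counts and so the widest counting error.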
